A study of Mus musculus with 8 samples.

Results

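The regions described here are 10726 windows of mouse kidney DNA that were rich in measured CpG sites and carried almost no methylation in the sham-operated kidney of the ischemia experiment. Each window spans 1000 bp, counted from the first base of its autosome in the mm9 build. It holds at least 20 CpG positions with 10 or more reads in all 8 libraries, and the median level over those positions in the ischemia sham lay below 10%. The limits were met by 10726 of the 11280 CpG-dense autosomal windows (95.1%), and by 10726 of the 93730 windows of the series with 3 or more such positions. The windows were thus chosen by their level in the ischemia sham, and that low level is not a result.

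The assay was RRBS (reduced representation bisulfite sequencing): MspI cuts DNA at CCGG, and bisulfite then converts unmethylated cytosines so that they read as thymines. DNA was taken from cortex and outer medulla of male wild-type C57BL/6J mice, and their ages are not stated. Unilateral ureteral obstruction (UUO, left ureter tied and cut, sampled at 7 days) had 2 libraries, and obstructed mice given 5AZA by intraperitoneal injection at 1 mg per kg per day had 2 libraries, while the obstruction sham had 1. Bilateral clamping of the renal pedicles for 25 minutes was followed by 1 week or by 1 month of reperfusion, with 1 library at each time and 1 from a sham of its own. The labels name the agent only as 5AZA and do not say that the obstructed mice without it received saline, and a sham with 5AZA was not analysed here. Whole tissue was used, so a change within cells and a change in the mixture of cell types cannot be told apart, and methylation gives no expression of marker genes. Promoters of 2 of 8 markers of kidney epithelium (Lrp2 and Pax2), 0 of 7 of leukocytes and 0 of 5 of fibroblasts were matched in the windows.

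CpG islands are stretches in which CpG sites are frequent and normally free of methylation, and many start sites of mammalian genes lie in them. DNMT enzymes add methyl groups to cytosine, TET enzymes oxidise them on the way to their removal, and dense methylation of a promoter island is known to accompany silencing of its gene. Gain of methylation at such islands is a subject of study in kidney fibrosis, the scarring that follows injury.

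The reading of such windows depends on which CpG sites are used, and the promoters of 8 genes show this at the level of sequence. Dnmt3a (a DNA methyltransferase) and Tet3 (a TET enzyme) stand for the methylation machinery, Hspd1 (a mitochondrial chaperone) for housekeeping genes and Pax2 for transcription factors of kidney development. Nktr, Ythdf1, Sema4b and Gng10 are shown because their windows passed the adjusted p in the comparisons given further on. The choice of all 8 was made after their values were seen. Each line gives the 250 bases before a transcription start, from RefSeq (GRCm38.p6), 5′ to 3′ in the gene's direction. Capitals mark the CpG sites measured inside fragments, lower case all other bases, including the CpG of each ccgg and CpG sites at fragment edges, outside fragments or not matched.

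Dnmt3a: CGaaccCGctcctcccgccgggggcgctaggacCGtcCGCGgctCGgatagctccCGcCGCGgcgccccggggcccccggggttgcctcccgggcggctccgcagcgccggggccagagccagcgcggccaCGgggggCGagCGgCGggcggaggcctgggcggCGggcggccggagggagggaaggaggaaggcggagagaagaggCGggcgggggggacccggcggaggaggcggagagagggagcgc
Tet3: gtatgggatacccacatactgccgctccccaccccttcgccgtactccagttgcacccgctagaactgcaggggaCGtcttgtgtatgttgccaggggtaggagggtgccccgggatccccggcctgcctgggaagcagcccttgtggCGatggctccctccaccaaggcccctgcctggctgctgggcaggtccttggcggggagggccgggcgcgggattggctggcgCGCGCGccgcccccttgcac
Hspd1: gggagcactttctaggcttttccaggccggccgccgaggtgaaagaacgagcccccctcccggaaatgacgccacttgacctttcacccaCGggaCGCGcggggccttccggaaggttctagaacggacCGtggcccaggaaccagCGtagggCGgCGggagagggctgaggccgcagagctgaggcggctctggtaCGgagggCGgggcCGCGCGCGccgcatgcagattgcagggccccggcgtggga
Pax2: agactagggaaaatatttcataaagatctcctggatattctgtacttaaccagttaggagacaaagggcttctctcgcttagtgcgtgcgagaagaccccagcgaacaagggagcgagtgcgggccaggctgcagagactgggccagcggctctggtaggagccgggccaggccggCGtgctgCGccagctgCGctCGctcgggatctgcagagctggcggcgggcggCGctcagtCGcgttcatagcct
Nktr: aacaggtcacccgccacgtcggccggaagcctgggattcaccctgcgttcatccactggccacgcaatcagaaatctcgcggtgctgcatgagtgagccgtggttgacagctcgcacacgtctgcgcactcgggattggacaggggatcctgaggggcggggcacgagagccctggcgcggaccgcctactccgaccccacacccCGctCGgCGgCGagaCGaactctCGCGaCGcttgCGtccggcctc
Ythdf1: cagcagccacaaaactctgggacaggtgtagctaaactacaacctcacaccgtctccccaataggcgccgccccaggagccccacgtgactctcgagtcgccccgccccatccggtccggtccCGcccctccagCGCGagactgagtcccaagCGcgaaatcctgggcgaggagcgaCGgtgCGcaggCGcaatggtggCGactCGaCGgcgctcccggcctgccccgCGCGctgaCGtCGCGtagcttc
Sema4b: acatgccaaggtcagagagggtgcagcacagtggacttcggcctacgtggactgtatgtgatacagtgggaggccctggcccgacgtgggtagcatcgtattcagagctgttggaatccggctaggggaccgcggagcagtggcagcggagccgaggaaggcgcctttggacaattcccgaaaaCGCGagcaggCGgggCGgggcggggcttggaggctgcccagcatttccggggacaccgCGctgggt
Gng10: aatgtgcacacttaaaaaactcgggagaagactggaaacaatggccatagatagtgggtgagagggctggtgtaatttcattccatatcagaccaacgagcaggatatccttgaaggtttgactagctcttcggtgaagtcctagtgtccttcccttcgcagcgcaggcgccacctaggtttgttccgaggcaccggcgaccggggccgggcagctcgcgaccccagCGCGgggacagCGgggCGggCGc

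In GRCm38.p6 these stretches lie at chr12:3806730-3806979, + strand (Dnmt3a), chr6:83441679-83441928, - strand (Tet3), chr1:55087933-55088182, - strand (Hspd1) and chr19:44755502-44755751, + strand (Pax2). The others lie at chr9:121718931-121719180, + strand (Nktr), chr2:180920937-180921186, - strand (Ythdf1), chr7:80186620-80186869, + strand (Sema4b) and chr4:59034906-59035155, + strand (Gng10). The 8 stretches hold between 17 and 38 CpG sites each, 199 in all, of which 73 are in capitals. The 15 capital sites of Dnmt3a averaged 1.27% in the UUO sham, 1.69% and 1.17% after UUO, and 1.57% and 1.04% with 5AZA. At its 4 measured CCGG sites it was 66.4% in the UUO sham and between 58.2% and 68.0% over the 8 libraries. Tet3 read 1.75% in the UUO sham at its 5 capital sites, 2.63% and 2.92% after UUO and 0.920% and 1.08% with 5AZA. Its 3 CCGG sites read between 70.4% and 82.3%. A promoter thus read as unmethylated and as largely methylated within the same stretch, depending on whether the site lay in the recognition sequence of the enzyme.

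The same split ran through all matched promoters of the windows. Gene names were assigned by matching the spacing of successive CpG sites to RefSeq promoter sequences (250 bases before to 50 after a start), which named 4715 genes in 4394 of the 10715 tested windows (41.0%). Of 49872 runs of 8 sites matched to a single place, 48472 (97.2%) fell on the same chromosome, which the matching had not used. In these promoters the mean level at 9889 CCGG sites was between 69.2% and 73.8% in the 8 libraries. At the 62269 other CpG sites it was between 1.06% and 2.31%. The protocol fills in cut ends with methylated cytosine, and CCGG sites at fragment ends are the sites that this fill-in reaches. Whether it produced the high values was not tested. All comparisons below therefore use positions inside fragments, where read depth was steady to the neighbours on both sides. That left out 44.3% of the positions of the windows (58.0% in the series) and 99.8% of the CCGG sites in matched promoters. Motif matching used CCGG, which reads the same on both strands and is present in 52.8% of all RefSeq promoter sequences of this length, 85.0% of those with 8 or more CpG sites and 99.92% of those matched in the windows.

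The windows held 413006 of the 976938 positions kept in the series (42.3%). The median window had 34 positions, against 5 over all windows with 3 or more. Successive positions lay a median of 7 bp apart, against 11 bp over all windows. The rule asks for a minimum number of positions in each window. That sets these contrasts, at least in part, in advance, so they describe the selection and are not results. Of the 10726 windows, 3901 (36.4%) adjoined another one. The longest run had 5 windows, at chr10:41994001-41999000 (mm9), and holds promoters of Foxo3, a forkhead transcription factor, and of the predicted gene Gm38485. Chromosome 2 held most windows, 893, and chromosome 18 fewest, 320. Matched promoters had a median of 31 CpG sites and 69% GC, against 7 sites and 52.7% GC over all RefSeq promoters of the table. Matching needs a run of 8 sites, which sets part of this contrast in advance. All promoters with 8 or more sites had a median of 21. A window was covered by a median of 1237 reads per library inside fragments, at which a level of 2% has an exact 95% interval of 1.31% to 2.97%. A read is counted at each CpG site that it covers and copies made by PCR cannot be recognised, so such intervals hold counting error only and are too narrow. In 11 windows fewer than 3 positions lay inside fragments, and the remaining 10715 were tested.

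In 7584 of the 10726 windows the median position of the ischemia sham had no methylated read, and in 3142 it had some. Near the limit of 10%, 52 windows had a median of 8 to 10% and 34 windows one of 10 to 12%. Just inside lay chr8:35868001-35869000 (median 9.96%), chr8:107783001-107784000 (9.88%) and chr5:36022001-36023000 (9.76%). Just outside, chr8:95379001-95380000 had a median of 10.1% and chr17:48168001-48169000 one of 10.3%. Inside fragments, the former read 3.50% in the ischemia sham and the latter 9.59%. The windows just inside the limit read 9.17%, 9.65% and 5.48% there, in the order named. Levels inside fragments thus overlapped on both sides of the limit.

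Inside fragments the windows were nearly unmethylated in every library, and UUO stood slightly above its sham. Averaged over the 10715 windows, the level reached 2.16% in the UUO sham, 2.40% and 2.48% in the UUO libraries, and 2.24% and 2.27% with 5AZA. Both UUO libraries were above the UUO sham and both 5AZA libraries lay between them. UUO averaged 2.44% ± 0.060 (SD, n = 2), 0.28 points above the sham, and 5AZA 2.26% ± 0.026 (SD, n = 2). The difference between UUO and 5AZA was -0.18 points, and that between 5AZA and the sham 0.09 points. With 2 libraries against 1, or 2 against 2, no exact test of a single value can reach 0.05, and none was made. The 5AZA difference changed sign, to 0.11 points, when edge positions were kept, and the UUO difference was then 0.11 points.

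The libraries of the ischemia experiment were lower throughout, at 1.23% in the sham, 1.28% at 1 week and 1.33% at 1 month. In 5647 windows (52.7%) all 3 of them lay below all 5 libraries of the obstruction experiment. That share was not counted over the series, and the rule favours this order, so it is not a result about these windows. The shams of both experiments differed by 0.93 points, more than the 0.28 points between UUO and its sham. Over all 33656 windows of the series, taken without regard to the rule, the mean difference between the shams was 0.93 points as well. The surgical experiment and anything else that differed between the 2 sets of libraries cannot be told apart here, and the rule itself picks windows low in the ischemia sham. The lowest windows moved too: the 5th percentile was between 0.74% and 0.85% in the obstruction experiment and between 0.12% and 0.17% in the ischemia experiment. UUO was therefore compared with the UUO sham only.

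**Figure D1:**
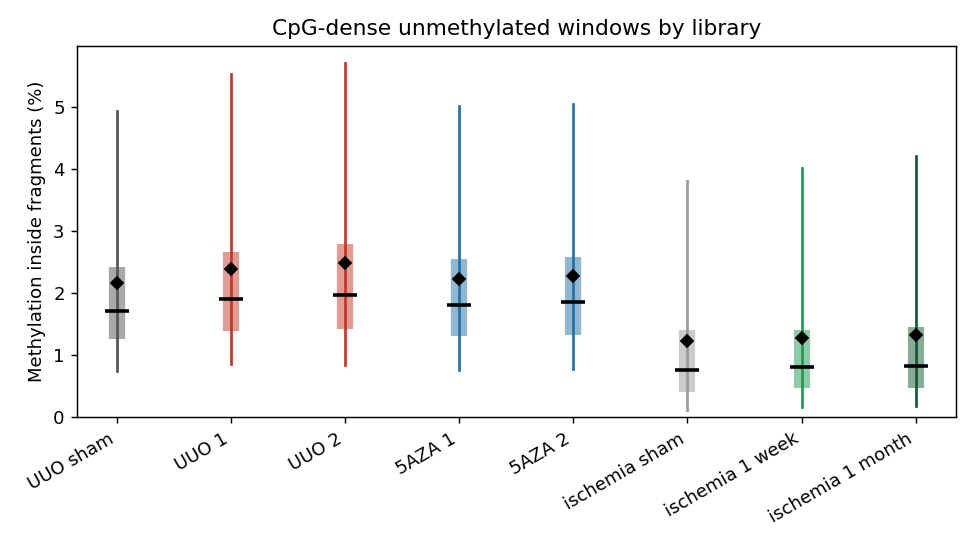
Methylation inside fragments (%, vertical axis) of the 10715 windows in each of the 8 libraries (horizontal axis). Black diamonds are means, black bars medians, boxes the 25th to 75th percentile and lines the 5th to 95th, and the means run from 1.23% in the ischemia sham to 2.48% in UUO 2, with the UUO sham at 2.16%.

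The small rise after UUO was a shift of many windows by a fraction of a point together with few windows that gained much. The median window gained 0.25 points, and the 25th and 75th percentiles were -0.22 and 0.72 points. UUO was above the sham in 6878 windows (64.2%) and below it in 3837. Over all 33656 windows of the series the median was 0.40 points and 62.7% were above 0, so the share that rose in the CpG-dense unmethylated windows was close to that in the series. A gain of at least 1 point was present in 1688 windows and a loss of at least 1 point in 655. A gain of at least 2 points was present in 380 windows and a loss of that size in 149, while 45 gained and 19 lost at least 5 points. At least 10 points were gained in 11 windows and lost in 1.

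The order of the single libraries gave the same picture. Both UUO libraries exceeded the UUO sham in 4858 windows (45.3%, against 44.8% over all windows of the series). In 2490 windows (23.2%) both lay below it, and in the remaining 3367 the sham lay between them or was tied. By autosome, the mean difference ran from 0.18 to 0.38 points and was positive on 19 of 19. Autosomes are not replicates, and the 2 UUO libraries also differed from each other with 1 sign on 19 of 19, by -0.16 to -0.003 points.

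Much of the spread over windows was also present between libraries of the same group. The UUO mean averages 2 libraries, which narrows its spread, whereas the pair compares single libraries. For single libraries, the SD over windows was 1.30 points for UUO 1 and 1.20 for UUO 2 against the sham, and 1.16 for UUO 1 against UUO 2. The 10% of windows with the largest gains held 44.6% of the summed gain of UUO over sham, and the top 1% held 11.4%. For UUO 1 against UUO 2 the same shares were 54.0% and 12.6%. UUO 1 exceeded UUO 2 by at least 5 points in 18 windows and lay as far below it in 37, against 45 and 19 for UUO over its sham. Large differences thus leaned to 1 side in both contrasts, and whether UUO against its sham leaned more than the pair was not tested. Taken singly, UUO 1 gained at least 5 points over the sham in 66 windows and lost as much in 34, and UUO 2 did so in 52 and 15.

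**Figure D2:**
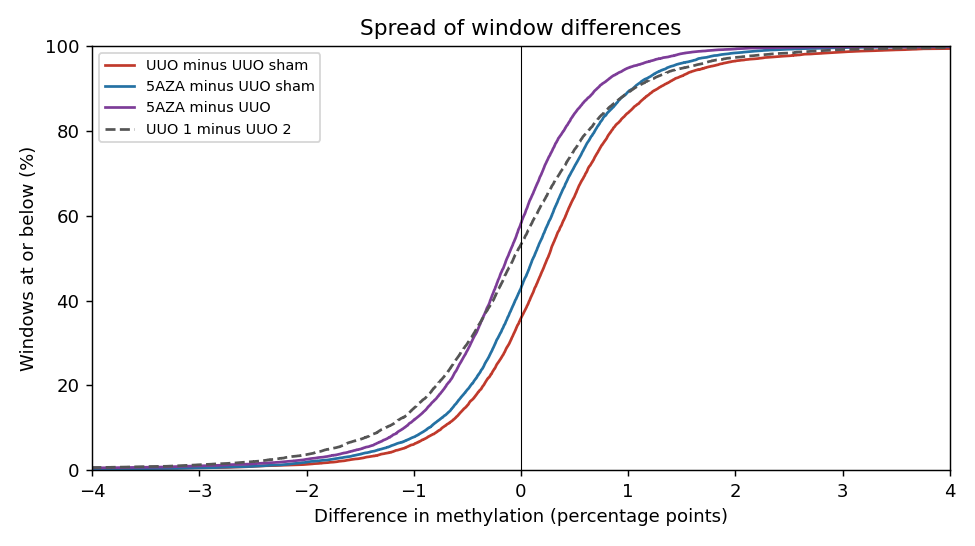
Cumulative share of the 10715 windows (%, vertical axis) by difference in methylation (percentage points, horizontal axis, drawn from -4 to 4) for 3 comparisons of groups and, dashed, for UUO 1 minus UUO 2. The curve of UUO minus UUO sham lies to the right, with a median of 0.25 points. That of 5AZA minus UUO lies to the left, with a median of -0.13 points. The dashed curve is no narrower than either, but it compares single libraries, whereas the others average the libraries of a pair.

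The gain grew with the level at which a window started, with windows classed by their level in the ischemia sham, which is not part of this comparison. In the 3478 windows below 0.5% there, UUO exceeded the UUO sham by 0.19 points. The difference was 0.22 points in the 3104 windows at 0.5 to 1%, 0.29 points in the 2557 windows at 1 to 2%, and 0.54 points in the 1241 windows at 2 to 5%. In the 335 windows above 5% it was 0.74 points. As a share of the level in the UUO sham the gain was 13.03%, 12.6%, 13.8%, 15.4% and 8.1% in the same order, so in the first 4 of the 5 classes it was close to proportional. 5AZA exceeded the UUO sham by between 0.08 and 0.11 points in those 4 classes and was 0.19 points below it in the highest. In that highest class the 5AZA libraries differed most, with 8.70% and 9.08% against 9.08% in the UUO sham. Windows with a matched promoter gained less on average, 0.20 points (4394 windows), than the 6321 windows without one, 0.33 points. Their level in the UUO sham was also lower, 1.97% against 2.29%, and the difference in gain was not tested. In the 975 windows next to one at 50% or more, UUO was 0.27 points above the sham, and 5AZA was level with it, at 2.51% and 2.54% against 2.52%. In the 189 windows with unmethylated neighbours of the same kind on both sides, UUO was 0.31 points and 5AZA 0.13 points above the sham.

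**Figure D3:**
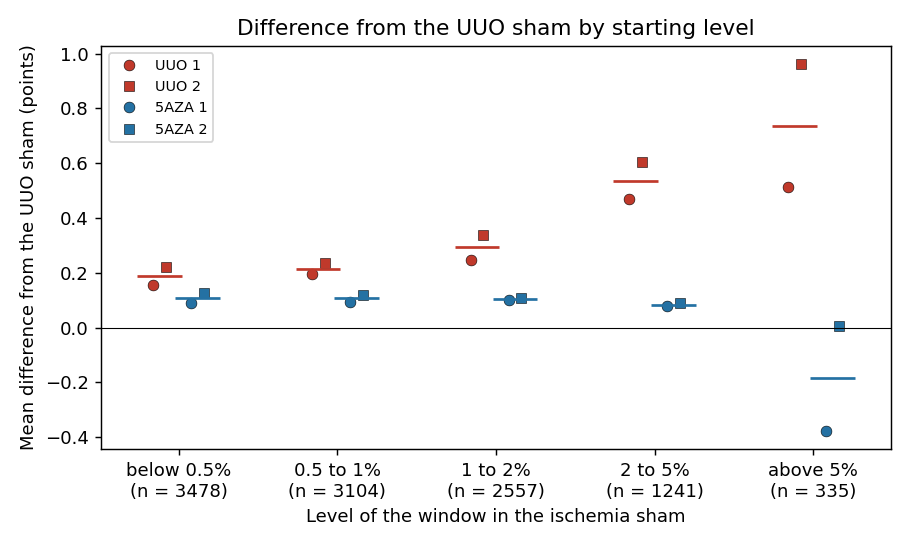
Mean difference from the UUO sham (percentage points, vertical axis) of each UUO and 5AZA library in 5 classes of windows by their level in the ischemia sham (horizontal axis, n windows in brackets), with short lines for the mean of each pair. UUO rises from 0.19 to 0.74 points while 5AZA stays near 0.1 points in the first 4 classes and is at -0.19 points in the last.

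A test of each window against the spread of the 2 pairs called few windows. It was a quasi-binomial model over all 8 libraries, with adjusted p taken over 33656 windows, and a call needed an adjusted p below 0.05 and 5 points. UUO was higher than its sham in 10 of the 10715 windows (0.0933%) and lower in 0. Over the series 0.196% of the windows were called higher and 0.0149% lower, a larger share than among the CpG-dense unmethylated windows, and the difference in share was not tested. At an unadjusted p below 0.05, 721 windows differed (6.73%, against 8.02% over the series). Other tools called none of the windows: at an unadjusted p below 0.05 edgeR had 571 and limma 431 (2202 and 2124 over the series). Over the series, too, neither tool called any window after adjustment. The 10 calls fell to 1 without UUO library 1, to 3 without UUO library 2, and to 4 without either 5AZA library. In the fits that leave out a UUO library, the lone UUO library is assumed to vary like the 5AZA pair.

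The 10 windows read between 2.45% and 11.0% in the sham and between 11.3% and 25.0% after UUO. On average they read 6.31% in the UUO sham, 18.9% and 19.3% after UUO, and 9.14% and 8.33% with 5AZA. Both UUO libraries lay above the sham in each of them, which the call favours but does not require. Each 5AZA library read lower than each UUO library, an order found in 22.7% of the 10715 windows and 39.8% of the series. Both 5AZA libraries exceeded the sham in 8 of the 10, against 36.6% of the 10715 windows and 25.4% of the series. The 5AZA values share the UUO libraries and the sham with the call, so they are given side by side and not as a separate result. Of the 10, only 1 held a matched promoter, and the others are placed by the nearest matched promoter, which need not be the nearest gene, with before and after counted along the chromosome.

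The largest rise lay at chr17:32533001-32534000 (mm9), 32.1 kb after the matched promoter of Wiz, a zinc finger gene. Its level was 4.92% in the UUO sham (exact 95% interval 3.92% to 6.09%), 25.0% and 20.1% after UUO, and 6.32% and 6.95% with 5AZA. UUO stood 17.66 points above the sham (SE 1.36, adjusted p = 3.76e-05), and 5AZA differed from UUO by -15.95 points (SE 1.31, adjusted p = 5.77e-05). The gain was carried by all 26 positions inside fragments, over 342 bp: at each, both UUO libraries exceeded the sham. Single positions averaged between 18.1% and 29.3% in the UUO pair, and read between 1.59% and 11.6% in the sham. In the 5AZA pair they averaged between 1.11% and 18.0%, with a median of 6.04%, near the sham's median of 4.29%. Neighbouring positions are read on the same fragments, so they are not separate measurements.

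**Figure D4:**
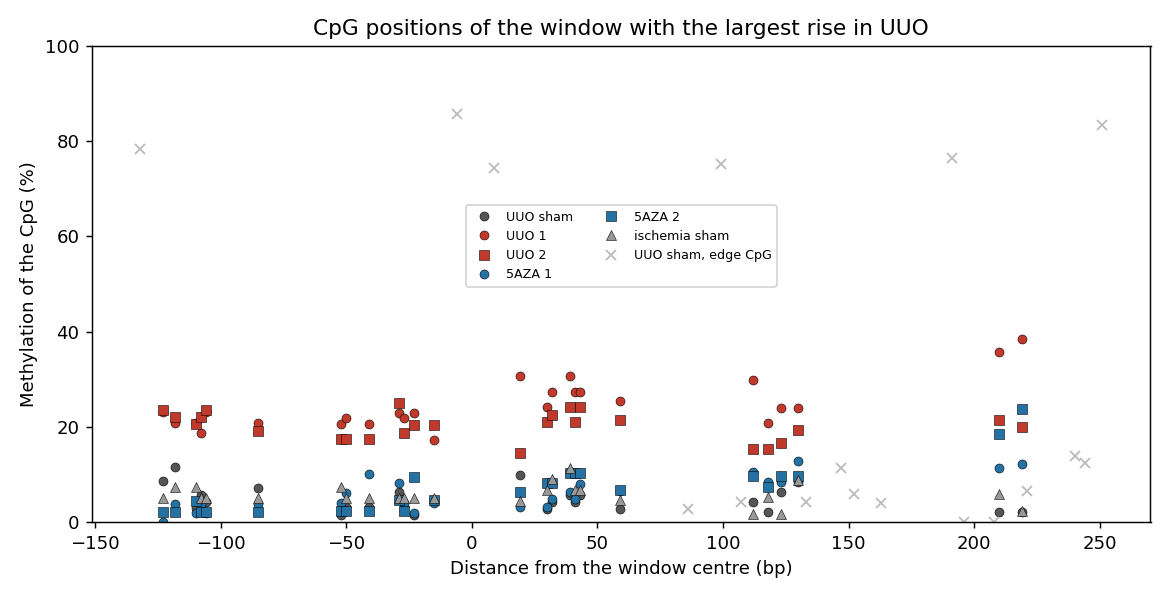
Methylation (%, vertical axis) of single CpG positions of the window on chromosome 17 by distance from its centre (bp, horizontal axis) in 6 libraries, with filled symbols for the 26 positions inside fragments and crosses for edge positions in the UUO sham. Both UUO libraries lie above the sham at all 26, and several edge positions read high in the sham although the window is nearly unmethylated inside fragments.

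The second rise lay at chr16:92606001-92607000, between the matched promoters of Rcan1, 140 kb before, and of Runx1, a transcription factor of blood formation, 91.2 kb after. It read 7.79% in the UUO sham, 23.1% and 25.0% after UUO, and 12.1% and 10.0% with 5AZA, a rise of 16.27 points (SE 1.56, adjusted p = 0.000211). The third, at chr4:116976001-116977000, read 2.82% in the sham, 18.0% and 15.4% after UUO, and 7.91% and 5.58% with 5AZA (13.86 points, SE 1.27, adjusted p = 0.000327). In both windows 5AZA lay between the sham and UUO. Both 5AZA libraries were above the sham's interval of 6.43% to 9.32% on chromosome 16 and of 1.94% to 3.96% on chromosome 4. That interval holds counting error only and is too narrow, and neither window was called for 5AZA against the sham.

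Of the 10 windows, 3 lay close to each other on chromosome 10. At chr10:126516001-126517000, 19.3 kb after the matched promoter of Marchf9, a ubiquitin ligase, the sham read 2.45%, UUO 18.2% and 14.4%, and 5AZA 8.25% and 9.27%. At chr10:126528001-126529000 the sham read 5.32%, UUO 19.8% and 17.0%, and 5AZA 8.72% and 9.28%. At chr10:126763001-126764000, 14.6 kb after the matched promoter of Mars1, a methionyl-tRNA synthetase, the sham read 4.24%, UUO 11.3% and 13.3%, and 5AZA 7.47% and 5.13%. The groups did not overlap in any of the 3, which were picked by the call, so this is not a separate result. Both UUO libraries exceeded the sham in 45.3% of the 10715 windows and 44.8% of the series. Each 5AZA library read below each UUO library in 22.7% and 39.8%, and both exceeded the sham in 36.6% and 25.4%, in the same order. The adjusted p for UUO against the sham was 0.00823, 0.000106 and 0.0356.

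The only called window with a matched promoter was that of the predicted gene Gm15609, at chr15:89354001-89355000. It read 11.0% in the UUO sham, 21.8% and 23.0% after UUO, and 14.3% and 11.3% with 5AZA (11.43 points above sham, SE 1.82, adjusted p = 0.0244). The window at chr2:152533001-152534000 was the one in which 5AZA lay lowest, at 4.47% and 4.01%, below the sham at 6.13%, with UUO at 16.5% and 21.3% (12.79 points, SE 1.67, adjusted p = 0.00479). On chromosome 7, chr7:25162001-25163000 read 10.9% in the sham and 20.6% and 23.4% after UUO (adjusted p = 0.0350). On chromosome 19, chr19:61301001-61302000 read 7.58% in the sham and 15.1% and 20.1% after UUO (adjusted p = 0.0460).

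**Figure D5:**
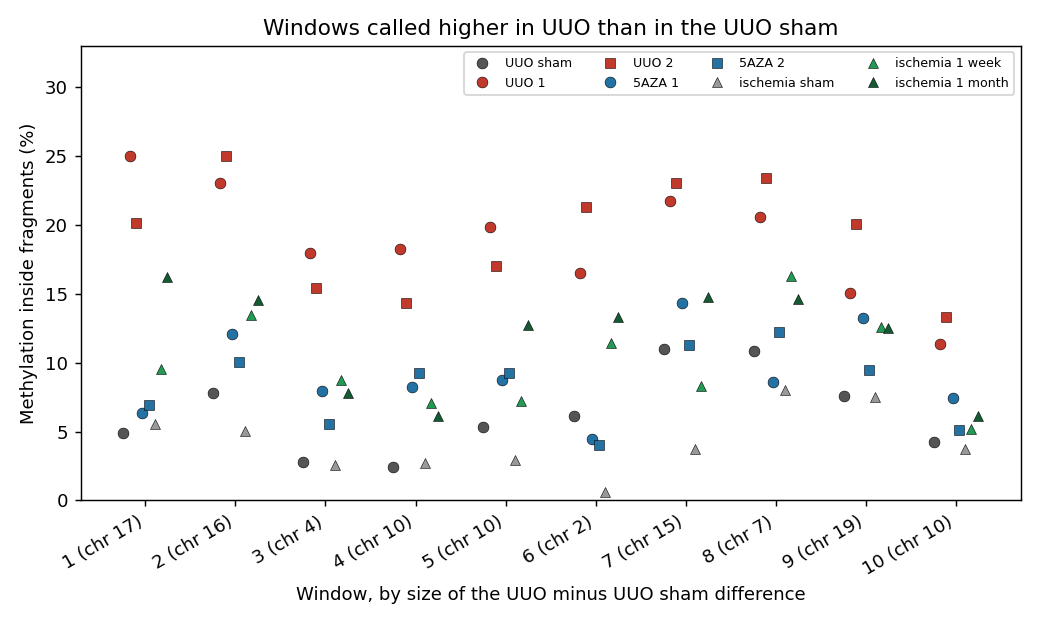
Methylation inside fragments (%, vertical axis) in the 8 libraries for the 10 windows called higher in UUO than in the UUO sham, ordered by the size of the difference (horizontal axis, chromosome in brackets). Red UUO symbols lie above the dark grey UUO sham in every window, blue 5AZA symbols lie below the red UUO symbols and, for both libraries, above the UUO sham in 8 of the 10, and the green ischemia triangles lie above the light grey triangle of the ischemia sham.

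The ischemia libraries share none of the libraries of the UUO comparison. In all 10 windows both ischemia libraries exceeded the ischemia sham, with means of 4.25% in that sham, 9.98% at 1 week and 11.9% at 1 month. The rule keeps windows that were low in the ischemia sham, which favours this order, and it held in 39.4% of the 10715 windows. The limit on the ischemia sham sorts CpG-dense windows only. Among the 36 windows with under 20 positions that were called higher after UUO, both ischemia libraries exceeded their sham in 28 (77.8%), against 35.8% of all 22202 such windows. These shares are descriptions of 1 library per ischemia group and were not tested. Of the 10 windows, 5 had a median of 10% or more in the 1-week library and would not have been included had that library set the limit.

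Below 5 points, 3 more windows passed the adjusted p, so that 12 were higher and 1 lower by that p alone (0.202% and 0.0327% of the series). That at chr8:91151001-91152000 rose from 2.36% in the sham to 5.41% and 5.70% after UUO (adjusted p = 0.0353). That at chr16:4419001-4420000, 1.0 kb before the matched promoter of Adcy9, an adenylyl cyclase, rose from 5.36% to 9.65% and 10.7% (adjusted p = 0.0350). The third fell: the window of the promoter of Nktr, a cyclophilin-related gene of natural killer cells, at chr9:121628001-121629000, read 3.06% in the sham and 1.04% and 0.75% after UUO (-2.16 points, SE 0.48, adjusted p = 0.0457). Its 5AZA libraries read 1.08% and 1.04%, and the ischemia libraries between 0.07% and 1.15%, so the UUO sham was the highest of the 8 libraries. At the 9 capital sites of the printed Nktr promoter the sham read 3.75% and both UUO libraries 0.463%.

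With 10 reads a position, 0 of the 10715 windows were lower after UUO and met both limits of a call. With at least 20 reads and the windows chosen again, 7 were called higher and 2 lower. Those 2 are named here after their values were seen. The first, chr1:6431001-6432000, read 7.18% in the sham and 1.87% and 1.77% after UUO, with an adjusted p of 0.0381 at 20 reads and of 0.0559 at 10 reads. The other, chr3:124024001-124025000, is not among the 10726 windows at 10 reads, and read 20.9% in the sham and 8.75% and 11.2% after UUO. The largest fall at 10 reads, in the window of the predicted gene Gm39222 at chr8:94321001-94322000, went from 19.6% in the sham to 3.69% and 12.3% after UUO, and its adjusted p was 0.145. The window of Retreg1, a receptor for turnover of the endoplasmic reticulum, at chr15:25772001-25773000, read 18.8% in the sham and 5.10% and 14.1% after UUO (adjusted p = 0.605). That of Parn, a poly(A) ribonuclease, at chr16:13668001-13669000, read 23.3% in the sham and 11.0% and 17.7% after UUO (adjusted p = 0.285). In all 3 the sham was above both UUO libraries, which differed from each other by more than 6 points. The 5AZA libraries read 7.89% and 15.1% for Gm39222, 6.11% and 20.5% for Retreg1, and 18.3% and 23.8% for Parn.

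Few of the windows were called lower with 5AZA than after UUO alone. Among the 10715 windows, 14 (0.131%) were called lower and 1 higher, where the series had 1.09% called lower and 0.00891% called higher. The difference in share was not tested, and these are windows whose mean level of 2.44% after UUO leaves few with 5 points to lose. Without the minimum of 5 points, 29 (0.271%) were lower and 2 higher, against 1.17% and 0.0119% over the series. The median window fell by 0.13 points, against 0.79 points over all windows of the series. 5AZA read below UUO in 6232 of the 10715 windows and above it in 4482 (41.8%), against 28.1% above over the series. In 2437 windows (22.7%) each 5AZA library read lower than each UUO library, and in 1417 (13.2%) each read higher. Over all windows of the series these shares were 39.8% and 8.45%. At an unadjusted p below 0.05, 801 windows differed by the quasi-binomial test (7.48%, against 18.1% over the series), 624 by edgeR and 412 by limma (5375 and 4680 over the series), and neither edgeR nor limma called any after adjustment. The 15 calls fell to 1 or 2 when any 1 of the 4 libraries was left out.

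Across the 14 falls, UUO averaged 18.3% and 18.0%, 5AZA 8.61% and 8.50%, and the UUO sham 8.10%. The largest after that on chromosome 17 was at chr2:152533001-152534000, where 5AZA differed from UUO by -14.68 points (SE 1.52, adjusted p = 0.000435). Of the falls in windows not described so far, chr14:62305001-62306000, 4.1 kb after the matched promoter of the non-coding gene Dleu2, read 20.2% and 18.1% after UUO and 10.2% and 8.84% with 5AZA (-9.61 points, adjusted p = 0.0124). Its UUO sham was at 15.4%, so 5AZA lay below the sham as well. The window at chr10:7587001-7588000 read 22.1% and 20.7% after UUO and 10.8% and 15.9% with 5AZA (adjusted p = 0.0344), with the sham at 13.96%. That at chr5:98364001-98365000 read 18.5% and 20.1% after UUO and 9.97% and 12.5% with 5AZA (adjusted p = 0.0199), with the sham at 11.3%.

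The 1 window called higher with 5AZA stood apart from the rest. At chr4:53727001-53728000 the 5AZA libraries read 16.8% and 20.9% and the UUO libraries 1.44% and 7.43%, a difference of 14.41 points (SE 2.12, adjusted p = 0.00180). The UUO sham was at 6.07%, inside the range of the UUO pair. The ischemia libraries spanned much of the same range, with 0.49% in the sham, 6.49% at 1 week and 15.2% at 1 month. Levels there thus differed widely between libraries without 5AZA too. Of the next largest rises, that of the Parn window was 6.64 points (adjusted p = 0.134). The window 0.7 kb before the matched promoter of Ankrd13b, an ankyrin repeat gene, at chr11:77302001-77303000, read 4.91% and 7.64% after UUO and 9.34% and 12.8% with 5AZA (adjusted p = 0.0938).

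Gene promoters were among the windows that passed the adjusted p with less than 5 points. The window of Gng10, a G protein gamma subunit, at chr4:59048001-59049000, read 5.78% and 6.37% after UUO, 1.55% and 1.23% with 5AZA and 4.51% in the UUO sham (adjusted p = 0.00216). The UUO libraries agree less at single sites: the 5 capital sites of the printed Gng10 promoter read 0.851% and 13.5% after UUO. The window of Sema4b, a transmembrane semaphorin, at chr7:87331001-87332000, read 5.27% and 4.96% after UUO, 0.92% and 1.11% with 5AZA and 1.49% in the sham (adjusted p = 0.0103). Its 5 capital sites read 5.07% and 7.03% after UUO, 1.00% in the sham and 1.43% and 2.53% with 5AZA, beside a CCGG site that read between 63.6% and 87.5%. For Gng10 both 5AZA libraries were below the sham, and for Sema4b as well by less than 0.6 points.

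Smaller falls were found at the shared window of Phb2 (a mitochondrial prohibitin) and Emg1 (a factor of ribosome assembly), at that of Pou4f2 (a neuronal transcription factor), and at that of Cct7 (a chaperonin subunit) and Pradc1. For Phb2 and Emg1, UUO read 2.52% and 4.27%, 5AZA 1.03% and 0.30%, and the UUO sham 0.78% (adjusted p = 0.0489). For Pou4f2, UUO read 3.48% and 3.23% and 5AZA 1.41% and 1.30% (adjusted p = 0.0325). For Cct7 and Pradc1, UUO read 2.46% and 2.16% and 5AZA 1.30% and 0.75% (adjusted p = 0.0483). The window of Ythdf1, a reader of N6-methyladenosine in RNA, rose instead, from 1.06% and 1.12% after UUO to 3.52% and 2.23% with 5AZA (adjusted p = 0.0338), with the sham at 2.05%. These changes were at most 5 points, in windows that stayed below 7% in the 5 libraries of the obstruction experiment.

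Against the UUO sham, 0 of the windows were called with 5AZA. The series had 0.0357% of its windows called, all lower, and 498 of the 10715 windows (4.65%) passed an unadjusted p of 0.05, against 8.44% over the series. By edgeR 465 and by limma 406 windows passed the unadjusted p (2735 and 2734 over the series), with 0 after adjustment by either. Over the series edgeR had 3 after adjustment and limma 0. The median window was 0.11 points above the sham, where the series median was -0.31 points. Both 5AZA libraries exceeded the sham in 3923 windows (36.6%) and both lay below it in 3038 (28.4%), where the series had 25.4% and 43.9%. At least 5 points separated 5AZA from the sham upward in 13 windows and downward in 15. The largest rise was again at chr4:53727001-53728000, by 12.78 points (adjusted p = 0.130). Among windows with at least 10 positions inside fragments and the same direction in both pairs of libraries, the largest fall was in a window of a promoter of Esrrg, an orphan nuclear receptor, at chr1:189475001-189476000, from 26.4% in the sham to 16.5% and 19.7% (adjusted p = 0.509). The window of Sirt5, a mitochondrial deacylase, at chr13:43460001-43461000, read 18.0% in the sham and 11.9% and 12.4% with 5AZA (adjusted p = 0.617), while the UUO libraries, at 6.94% and 19.8%, spanned all of these values.

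Promoters of 6 lists of genes were looked up in the windows, and none of their windows was called in the comparison with the UUO sham or with UUO. Of 27 genes of the methylation machinery 12 were matched, in 14 windows, with a median UUO difference of 0.26 points, close to the 0.25 points of all 10715. Tet3 had the largest rise in that list, from 1.61% in the sham to 2.95% and 2.87% after UUO, with 1.66% and 1.47% with 5AZA (adjusted p = 0.760 against the sham). Hells, a chromatin remodeller needed for DNA methylation, had the largest fall, from 2.26% to 0.53% and 1.71% (adjusted p = 0.838). Dnmt1, the maintenance methyltransferase, read 2.14% in the sham and 1.60% and 1.18% after UUO. Tet2 read 2.06% in the sham and 1.42% and 2.04% after UUO. Dnmt3a had 2 windows, at 1.10% and 1.99% in the sham and between 1.24% and 1.59% after UUO.

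Kidney development transcription factors had the highest median among the lists, 0.76 points over 10 windows with 9 of 30 genes, and both UUO libraries exceeded the sham in 7 of the 10, against 45.3% of the 10715 windows. The same count was 6 of 14 for the methylation machinery, 5 of 15 for other developmental regulators, 4 of 7 for matrix and fibrosis genes, 4 of 9 for tumour suppressor and cell cycle genes, and 2 of 10 for housekeeping genes. Lhx1, needed for formation of the nephron, read 2.28% in the sham, 4.70% and 4.22% after UUO, and 4.95% and 3.84% with 5AZA (adjusted p = 0.646 for UUO). Foxc1 read 0.94% in the sham and 1.40% and 1.82% after UUO, and Tfcp2l1, a factor of collecting duct cells, 1.87% in the sham and 0.76% and 1.80% after UUO. Pax2, which directs formation of the kidney, had 2 neighbouring windows: the first read 2.26% in the sham and 2.27% and 1.96% after UUO, the second 0.59% in the sham and 1.31% and 1.71% after UUO (adjusted p = 0.528). With 10 windows and no call, this list is not shown to differ from the rest.

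Among other developmental regulators, 14 of 65 genes were matched, in 15 windows, with a median of 0.002 points. Nkx6-1, a homeobox factor, had the largest rise, from 2.73% in the sham to 5.65% and 5.56% after UUO (2.88 points, SE 0.78, adjusted p = 0.207), with 5.38% and 3.35% with 5AZA. Gata2 had the largest fall, from 4.18% to 2.01% and 2.90% (adjusted p = 0.740), and Gbx2, the middle member, read 1.78% in the sham and 1.78% and 1.77% after UUO. Of 43 matrix and fibrosis genes 8 were matched, in 7 windows, with a median of 0.38 points. Smad6, an inhibitor of signalling by the TGF-beta family, read 1.62% in the sham and 2.55% and 2.12% after UUO. Col4a2, a basement membrane collagen, read 1.58% in the sham and 1.89% and 1.52% after UUO. Sulf2, a sulfatase of heparan sulfate, read 2.69% in the sham and 1.96% and 2.25% after UUO.

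Tumour suppressor and cell cycle genes, whose islands are often studied for silencing, had 9 of 34 genes matched, in 9 windows, with a median of 0.10 points. Cdkn2a read 3.06% in the sham and 3.64% and 4.40% after UUO, Dapk1 3.10% in the sham and 1.84% and 3.0% after UUO, and E2f1 1.42% in the sham and 1.42% and 1.62% after UUO. Housekeeping genes had 8 of 50 matched, in 10 windows, with a median of -0.09 points. Cct2, a chaperonin subunit, read 1.58% in the sham and 2.58% and 2.60% after UUO, and Hspd1 1.74% in the sham and 1.25% and 1.27% after UUO. No window of any of the 6 lists exceeded 5.69% in any library.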

How the data were processed

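The deposited tables list, for each CpG position of a library, the count of reads and the count of methylated reads that the authors made, and the methylation level as a fraction, which the authors derived from them (per the file columns and their values). The submitters' processing notes name Bowtie and mm9, while the caller is not given in the sources used here. Counts were used without normalization. Totals per library were 57853745 to 86411736 reads over CpG positions, and the median position had 33 to 48. Whether libraries of 1 group stem from separate mice is not stated in the labels, and p-values then measure only the spread between these libraries, which may be technical.

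Positions needed 10 reads in all 8 libraries. A position lay inside fragments when summed depth changed by at most 10% to a neighbour within 250 bp on both sides, with neighbours of at least 40 reads. Counts inside fragments were summed per window, and windows with 3 or more such positions were kept. A quasi-binomial model with 1 mean per group had its Pearson dispersion moderated by squeezeVar of limma 3.58.1 (R 4.3.3; dispersion 1.94, prior degrees of freedom 15.0, residual 2, not below 1) and was tested by a two-sided F test with Benjamini-Hochberg adjustment. Tested on simulated data for UUO against its sham over 33656 windows, it called 62% of 50 windows changed by 5 points and 100% of 50 changed by 10, and 2 of 33456 unchanged windows. Those data had a fitted dispersion of 1.37 and 41.3 prior degrees of freedom, less noise than the deposited data, so the shares may be too high for the deposited data. Alternatives used edgeR 4.0.16 and limma. Other steps used Python 3.11.15 with numpy 2.4.6, pandas 2.3.3 and scipy 1.17.1.

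Runs of 8 successive measured CpG sites were matched by spacing to RefSeq promoters (GRCm38.p6), which matched 6741 of 32851 sequences, and no coordinates were converted. Named windows are the 10 largest called changes per direction, or the 5 largest with like direction in every pair of libraries where fewer than 5 were called, windows past the adjusted p alone, and per gene list the largest, smallest and middle change. Some of these are given only as counts. Windows, lists and tests were chosen with earlier results of these data known.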

Additional observations from a re-analysis of the deposited data

How the results depend on the processing

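UUO against its sham gave 10 called windows. The count was 9 with at least 20 reads (2 lower), 4 with edge positions kept and 5 with windows chosen by the 1-week library. It was 17 in windows of 500 bp and 4 with only the 2 groups compared. By edgeR, by limma or with each library's reads in a window thinned to the smallest library total there, it was 0. It was between 1 and 4 leaving out a library. 5AZA against UUO gave 15, then 35 in windows of 500 bp, 5 at 10 points, 31 with no minimum difference, 0 by edgeR, limma or thinned reads, and 1 to 2 leaving out a library. 5AZA against the sham gave 0, then 1 in windows of 500 bp or with only the 2 groups compared, and 0 to 1 leaving out a library. Of the windows called, none changed direction with at least 20 reads, edge positions kept, edges at 20% or an upper limit on depth. The same held with thinned reads or with a library of the compared groups left out. The edgeR, limma, replicate block, minimum-difference and 2-group runs reuse the difference of the main run, so direction could not change there. Single windows were not followed in windows of 500 bp or with the 1-week library. The mean UUO difference of 0.279 points was 0.111 with edge positions kept and 0.344 in windows of 500 bp, and 0.236 to 0.322 leaving out a library. The 5AZA difference from UUO of -0.184 points reversed to 0.107 with edge positions kept, was -0.246 in windows of 500 bp, and -0.227 to -0.141 leaving out a library. The 5AZA difference from the sham of 0.0949 points was 0.218 with edge positions kept and 0.129 with edges at 20%, and 0.0765 to 0.113 leaving out a library. The top 10% of windows held 45.0% to 48.5% of the summed gain leaving out a UUO library. The causes of these changes were not tested.

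A replicate block for 5AZA against UUO left 0 calls. The mean difference was not estimated again with the block. Same-numbered libraries deviated together with a correlation of 0.0991 over the windows, in only 2 pairs, so the numbers were not used to pair them.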

Other observations

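The X chromosome lies outside the limits used above, which take autosomes only. By the same limits it held 183 windows with 3 or more positions inside fragments. They averaged 1.81% in the UUO sham, 2.18% and 2.19% after UUO, and 2.04% and 2.11% with 5AZA. The UUO difference there was 0.38 points, against 0.28 points in the autosomal windows. The ischemia libraries read 0.97% in the sham, 1.04% at 1 week and 1.18% at 1 month, again below the obstruction experiment.

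The 549 CpG-dense autosomal windows that missed the limit of 10% read 46.5% in the UUO sham, 48.7% and 48.5% after UUO, and 44.6% and 44.5% with 5AZA. As a share of the UUO level, 5AZA was lower by -8.28% there and by -7.54% in the unmethylated windows.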
